A study of Mus musculus with 12 samples.

Results

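Expression of 10 genes of the vascular and connective tissue matrix (Eln, Fbln5, Fbn1, Lox, Col1a1, Col1a2, Col3a1, Col4a1, Col4a2 and Sparc) was described in the forebrain of juvenile and adult Shank3 knock-out mice and their wild-type counterparts. The members were found by symbol among the 19268 genes of the table, and all 10 were present. The symbols had been chosen from earlier results on these libraries in which matrix genes differed between juveniles and adults, so their differences between ages are given as a description, with fitted values and counts of calls but no p, and nothing is read from those calls. Their genotype differences, and the age differences of genes outside the 10, were tested. Male C57BL/6J mice were either wild-type (WT) or homozygous for a Shank3 allele that lacks internal exons (KO). Forebrain was taken without the olfactory bulb at postnatal day 25 (P25, juvenile) or postnatal day 60 (P60, adult), with 3 libraries in each of the groups P25-WT, P25-KO, P60-WT and P60-KO, 12 in all. Each library came from 1 mouse per the study's methods.

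Elastic fibres let arteries stretch and recoil. They consist of an elastin core laid on fibrillin microfibrils, and fibulins and lysyl oxidases guide and cross-link elastin as it assembles. Type I and type III collagens form the tensile fibrils of vessel walls and meninges, type IV collagen forms the sheet of the basement membrane beneath endothelial cells, and SPARC is a secreted glycoprotein that binds collagen. In the brain these proteins are made mainly by endothelial cells, mural cells and the fibroblasts of the meninges and larger vessels, while Sparc is also made by glia.

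Values are normalized counts, that is, estimated read counts that the authors had adjusted for each gene and library. The columns totalled from 30568259 to 32348554, and the sequencing depth behind them is unknown because whole reads could not be recovered. None of the 10 genes had a value of 0 in any library, and all of them passed the filter of a mean of at least 10 in each comparison. Shank3 itself was lower in KO than in WT mice, with log2 differences of -1.06 ± 0.09 (SE) at P25 (limma adjusted p = 0.0134) and -0.99 ± 0.07 at P60 (adjusted p = 0.00220), and the 3 KO libraries lay below the 3 WT libraries at each age. The P25 call was lost without P25-KO replicate 1 (adjusted p = 0.246), without P25-KO replicate 2 (adjusted p = 0.201), with a replicate block (adjusted p = 0.261) and without the variance trend (adjusted p = 0.412), and the P60 call was lost without the variance trend (adjusted p = 0.185). The 6 forebrain markers examined summed to between 16642 and 18199 normalized counts in the P25 libraries and between 14618 and 15685 in the P60 libraries, against 79.5 to 462 over all libraries for the 5 measured markers of cerebellum and hindbrain.

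Col4a1 and Col4a2 encode the chains that combine into the common form of type IV collagen, and they lie head to head on chromosome 8 with start sites 21 bases apart. Their promoter windows, from 250 bases before to 50 bases after the RefSeq start site in GRCm38.p6, share 78 bases from chr8:11312777-11312854, which are shown in capitals because both genes start within this stretch and are read in opposite directions. The Col4a2 window is chr8:11312555-11312854 on the plus strand, and the Col4a1 window is chr8:11312777-11313076 on the minus strand. Each is written 5′ to 3′ on its own strand.
Col4a2: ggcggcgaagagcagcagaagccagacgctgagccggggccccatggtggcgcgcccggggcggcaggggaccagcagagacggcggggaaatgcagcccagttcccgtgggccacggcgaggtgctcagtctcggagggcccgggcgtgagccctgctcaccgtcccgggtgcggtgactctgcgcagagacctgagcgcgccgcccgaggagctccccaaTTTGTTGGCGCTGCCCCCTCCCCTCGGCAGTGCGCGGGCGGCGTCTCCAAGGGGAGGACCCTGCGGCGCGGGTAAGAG
Col4a1: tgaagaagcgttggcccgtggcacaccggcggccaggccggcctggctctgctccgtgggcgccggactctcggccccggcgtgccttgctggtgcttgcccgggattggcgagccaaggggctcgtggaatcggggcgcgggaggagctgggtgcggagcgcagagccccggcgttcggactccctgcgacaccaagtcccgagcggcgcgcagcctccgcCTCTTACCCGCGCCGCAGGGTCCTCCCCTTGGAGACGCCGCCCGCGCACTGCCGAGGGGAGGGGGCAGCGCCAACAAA
The GC content was 73.7% in the Col4a2 window and 74.0% in the Col4a1 window, against a median of 52.7% over 32851 promoter windows of the same length.

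The windows of 2 fibrillar collagen genes that were lower in adults and of Fbn1, whose level hardly differed, are shown for comparison. They are chr6:4505368-4505667 on the plus strand for Col1a2, chr1:45311288-45311587 on the plus strand for Col3a1 and chr2:125506389-125506688 on the minus strand for Fbn1. Capitals mark CCAAT, or ATTGG where it is read on the other strand.
Col1a2: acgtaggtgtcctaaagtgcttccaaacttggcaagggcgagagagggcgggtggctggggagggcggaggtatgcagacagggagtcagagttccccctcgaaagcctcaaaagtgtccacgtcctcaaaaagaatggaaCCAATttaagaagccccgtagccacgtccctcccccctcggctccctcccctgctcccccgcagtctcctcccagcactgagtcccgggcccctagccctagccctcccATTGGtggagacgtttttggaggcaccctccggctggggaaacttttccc
Col3a1: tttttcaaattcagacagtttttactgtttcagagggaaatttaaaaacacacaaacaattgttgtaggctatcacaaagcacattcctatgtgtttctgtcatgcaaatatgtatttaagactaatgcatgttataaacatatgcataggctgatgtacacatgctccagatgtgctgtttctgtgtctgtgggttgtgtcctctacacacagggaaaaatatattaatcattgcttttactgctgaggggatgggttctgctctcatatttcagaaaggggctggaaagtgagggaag
Fbn1: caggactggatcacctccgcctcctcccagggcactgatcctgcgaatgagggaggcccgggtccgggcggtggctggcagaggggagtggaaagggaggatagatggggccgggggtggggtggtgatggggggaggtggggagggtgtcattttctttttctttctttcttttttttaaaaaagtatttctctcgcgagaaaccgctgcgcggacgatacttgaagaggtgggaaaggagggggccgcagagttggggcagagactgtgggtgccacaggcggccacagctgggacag
CCAAT was found on either strand 2 times in the Col1a2 window, 1 time in each of the Col4a1 and Col4a2 windows, and in none of the letters of the Col3a1, Fbn1 and Sparc windows. It was found in 37.4% of all promoter windows. GGGCGG, searched on both strands, occurred 3 times in the Col4a2 window, 2 times in the Col1a2 window and 1 time in each of the Col4a1 and Fbn1 windows, and was found in 35.7% of all windows. TATAAA, searched on the given strand, occurred in the Col3a1 window, 117 bases before the start site, and in 8.32% of all windows. Fbln5 has 2 RefSeq windows, of which 1 held CCAAT and GGGCGG and the other held neither. These matches describe the letters of the windows and were not tested against the expression values.

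Between P25 and P60 most of the matrix genes were lower in adults. The median log2 difference of the 10 genes was -0.79 in WT mice and -0.73 in KO mice, beside medians of -0.00 and 0.01 over all genes tested. As a description, 6 of the 10 genes were under the threshold in WT mice (limma, adjusted p under 0.05), all 6 with lower values at P60, namely Eln, Col1a1, Col1a2, Col3a1, Col4a1 and Sparc. Over all 17581 genes tested, 8.65% passed it, 4.99% lower at P60 and 3.66% higher. In KO mice 7 of the 10 genes passed, namely the same 6 and Fbln5, again all lower at P60, beside 20.7% of all 17596 genes tested, 11.3% lower and 9.37% higher. Since the genes had been chosen with these differences known, nothing is read from these counts.

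The WT count depended on the libraries and the fit. It was 3 of 10 genes without P25-WT replicate 1 or without P60-WT replicate 3, when Col1a2, Col3a1 and Sparc no longer passed, 5 of 10 without P60-WT replicate 1, and 2 of 10 (Eln and Col1a1) without the variance trend. It was 8 of 10 with all 12 libraries in one fit, when Fbln5 and Lox passed too, and 7 of 10 with a pseudocount of 5 or quantile normalization, when Lox passed. The KO call of Fbln5 was lost without P25-KO replicate 1 or 3, without P60-KO replicate 1 or 3, without the variance trend and with the replicate number as a block. The number of all genes that passed in WT mice went from 1521 to between 122 and 375 without P25-WT replicate 1, or without any one of the 3 P60-WT libraries, and to 2403 without P25-WT replicate 2 and 2308 without P25-WT replicate 3. In KO mice it went from 3641 to between 2093 and 2354 without P25-KO replicate 1, P25-KO replicate 3, P60-KO replicate 1 or P60-KO replicate 3. All 3 P60 libraries lay below all 3 P25 libraries for 8 of the 10 genes in WT mice and for the same 8 in KO mice, the exceptions being Fbn1 and Col4a2, while 36% of all genes in WT mice and 39.4% in KO mice did not overlap between ages in either direction. Scaling each library to the same total turned the split of all calls from 644 higher and 877 lower to 991 higher and 681 lower in WT mice, and from 1649 higher and 1992 lower to 2109 higher and 1621 lower in KO mice, with the same number of matrix genes called lower. In such bulk tissue, fewer cells of a type and less RNA per cell cannot be told apart.

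**Figure D1:**
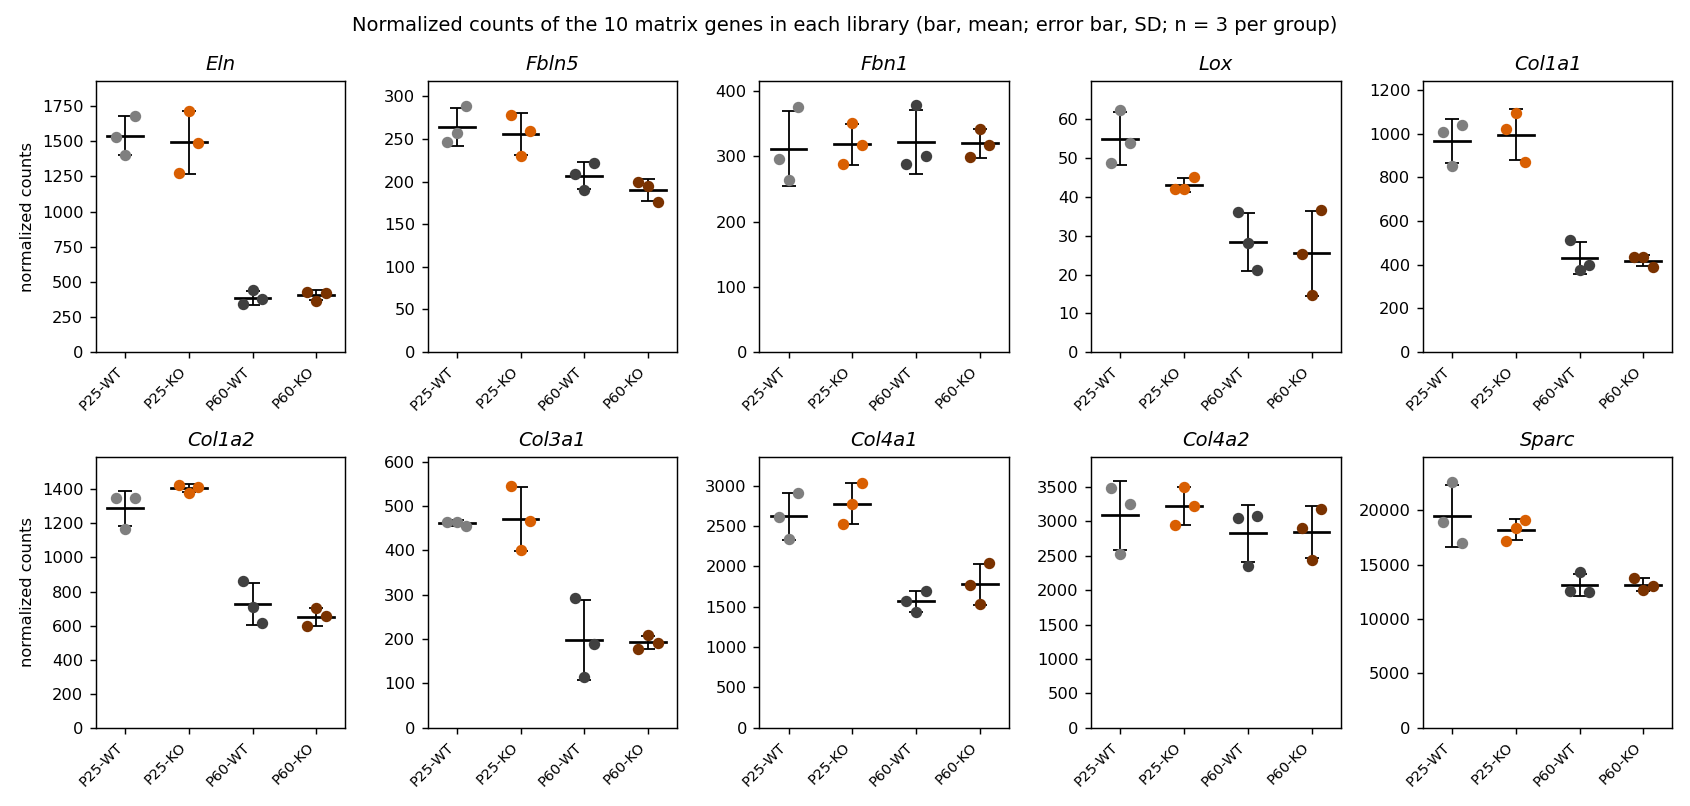
Normalized counts (vertical axes, linear from 0) of the 10 matrix genes in each of the 12 libraries by group (horizontal axes), with bars for means and error bars for SDs of 3 libraries. The Eln values lie from 1403 to 1680 in P25-WT and between 340 and 440 in P60-WT, while Fbn1 and Col4a2 overlap between all groups.

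Eln encodes tropoelastin, the soluble precursor of elastin (ENSMUSG00000029675, chromosome 5, 134702593 to 134747323, minus strand, GRCm38). Its normalized counts were 1531, 1403 and 1680 in the P25-WT libraries and 1273, 1717 and 1488 in the P25-KO libraries. They were 340, 440 and 379 in P60-WT and 429, 364 and 419 in P60-KO. Every adult library was far below every juvenile library, whatever the genotype, and within an age the genotypes overlapped. The P25 mean was 3.98 times the P60 mean in WT mice and 3.69 times in KO mice. On the log2(value + 1) scale the difference was -1.99 ± 0.12 in WT and -1.88 ± 0.11 in KO mice (SE), the largest among the 10 genes in both genotypes. Gm30003 is annotated antisense to Eln and had group means between 9.36 and 12.6 normalized counts, and reads of the pair cannot be told apart if the authors' counting ignored strand.

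Fbln5 encodes fibulin-5, which tethers elastin to microfibrils (ENSMUSG00000021186, chromosome 12, 101746565 to 101819055, minus strand). It had 264 ± 22.1 normalized counts in P25-WT and 207 ± 15.6 in P60-WT (SD, n = 3). KO mice had 256 ± 24.7 at P25 and 190.0 ± 12.4 at P60. The adult libraries were below the juvenile ones in both genotypes, but by a smaller step than for Eln, with log2 differences of -0.35 ± 0.13 in WT and -0.42 ± 0.12 in KO mice.

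Fbn1 encodes fibrillin-1, the main protein of microfibrils (ENSMUSG00000027204, chromosome 2, 125300594 to 125507993, minus strand). Its values were 295, 264 and 376 in P25-WT, 288, 351 and 317 in P25-KO, 288, 378 and 300 in P60-WT, and 299, 342 and 318 in P60-KO. The 4 groups covered one another. The log2 difference between ages was 0.05 in WT mice, with a 95% interval from -0.32 to 0.42, and 0.01 in KO mice, with an interval from -0.23 to 0.25. These differences changed sign with 1 library left out, to -0.059 without P25-WT replicate 2 and -0.069 without P60-WT replicate 2 in WT mice, and to -0.063 without P25-KO replicate 1 and -0.042 without P60-KO replicate 2 in KO mice.

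Lox encodes lysyl oxidase, the enzyme that starts the cross-linking of elastin and collagen (ENSMUSG00000024529, minus strand). It had the lowest values of the 10 genes. They were 48.8, 62.3 and 53.9 in P25-WT, 42.2, 42.0 and 45.1 in P25-KO, 36.1, 28.2 and 21.2 in P60-WT, and 25.3, 14.7 and 36.6 in P60-KO. Adult libraries were below juvenile ones in both genotypes, although the spread within the adult groups was wide, with a coefficient of variation of 26.3% in P60-WT and 43.0% in P60-KO. The log2 differences were -0.95 ± 0.26 in WT and -0.82 ± 0.32 in KO mice.

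Among the fibrillar collagens, Col1a1 and Col1a2 encode the chains of type I collagen and Col3a1 encodes type III collagen. Col1a1 (ENSMUSG00000001506, chromosome 11, 94936224 to 94953042, plus strand) had 1007, 854 and 1042 normalized counts in P25-WT and 514, 377 and 400 in P60-WT. The KO libraries had 1023, 1095 and 869 at P25 and 435, 434 and 388 at P60. The ages were well apart, and the P60 mean was 44.4% of the P25 mean in WT mice and 42.1% in KO mice. The log2 differences were -1.18 ± 0.14 and -1.24 ± 0.10.

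Col1a2 (ENSMUSG00000029661, chromosome 6, 4504814 to 4541544, plus strand) had 1349, 1167 and 1348 normalized counts in P25-WT, and 859, 708 and 613 in P60-WT. The P25-KO libraries had 1427, 1379 and 1415, and the P60-KO libraries 597, 704 and 653 at P60. The P25-KO libraries lay within 1.03 times of each other and above all P25-WT libraries. The log2 differences between ages were -0.84 ± 0.13 in WT and -1.11 ± 0.08 in KO mice. Their ratio Col1a1 over Col1a2 averaged 0.750 ± 0.021 in P25-WT and 0.594 ± 0.060 in P60-WT, without overlap, whereas in KO mice it averaged 0.708 ± 0.091 at P25 and 0.646 ± 0.072 at P60, with overlap (SD, n = 3).

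Col3a1 (ENSMUSG00000026043, chromosome 1, 45311538 to 45349706, plus strand) had 465, 465 and 454 normalized counts in P25-WT, and 544, 400 and 466 in P25-KO. It had 293, 114 and 189 in P60-WT, and 178, 208 and 192 in P60-KO. All adult libraries were below all juvenile ones. The P60-WT libraries spread over 2.57 times, from replicate 2 to replicate 1, and the P25-WT libraries over 1.02 times. The log2 differences were -1.31 ± 0.28 in WT and -1.27 ± 0.13 in KO mice, next in size after Eln.

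**Figure D2:**
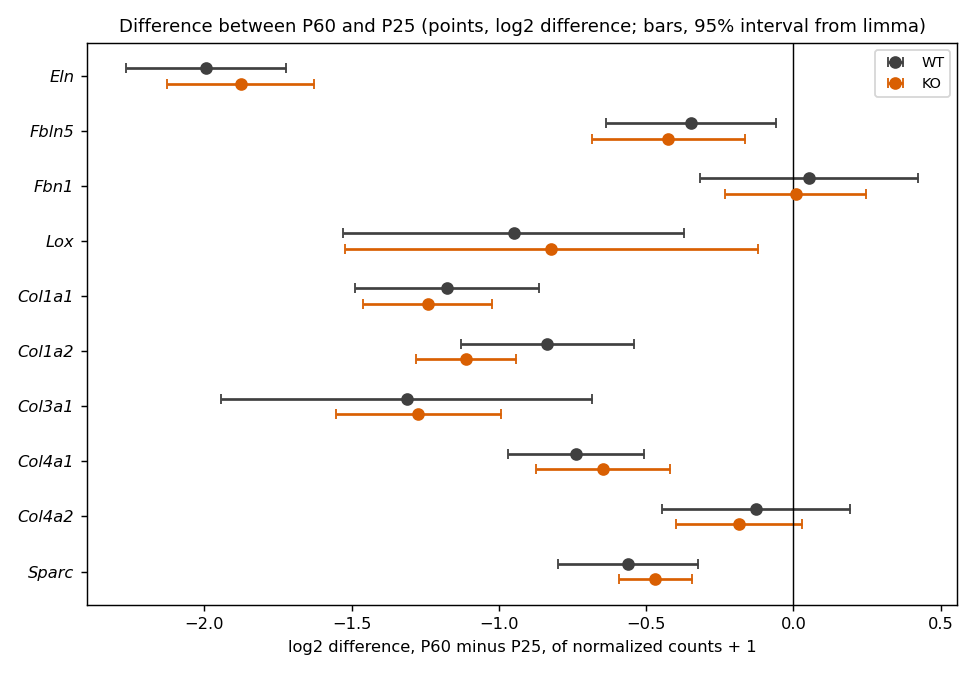
Log2 difference between P60 and P25 (horizontal axis, of normalized counts + 1) for the 10 matrix genes in WT and KO mice, with 95% intervals from limma as bars. Eln lies farthest to the left at -1.99 and -1.88, and the intervals of Fbn1 and Col4a2 include 0 in both genotypes.

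The type IV collagen genes differed from each other. Col4a1 (ENSMUSG00000031502, chromosome 8, 11198423 to 11312826, minus strand) had 2615, 2335 and 2909 normalized counts in P25-WT, and 1576, 1435 and 1690.5 in P60-WT. In KO mice it had 2522, 2780.4 and 3030.1 at P25, and 1771, 1531 and 2039 at P60. Adult libraries were below juvenile ones in both genotypes, with log2 differences of -0.74 ± 0.10 in WT and -0.65 ± 0.10 in KO mice.

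Col4a2 (ENSMUSG00000031503, chromosome 8, 11312805 to 11449287, plus strand) had 3485, 2529 and 3247 normalized counts in P25-WT, and 3043, 2349 and 3082 in P60-WT. Its values in KO mice were 2949, 3494 and 3227 at P25, and 2906, 2444 and 3183 at P60. The ages overlapped in each genotype. The log2 differences were -0.13, with a 95% interval from -0.44 to 0.19, in WT mice and -0.19, with an interval from -0.40 to 0.03, in KO mice. Without P60-WT replicate 2 the WT difference was 0.0017.

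The ratio of Col4a1 to Col4a2 counts within a library was 0.751, 0.923 and 0.896 in P25-WT, and 0.518, 0.611 and 0.549 in P60-WT. A factor common to all genes of a library cancels in this ratio, but an adjustment that the authors made per gene does not. The KO ratios were 0.855, 0.796 and 0.939 at P25, and 0.609, 0.627 and 0.641 at P60. Thus all 6 adult ratios lay below all 6 juvenile ratios. The ratio shows an unequal difference between ages in the pair of genes, and not that either gene stayed the same. The genes overlap at their start sites, and Gm15418, annotated antisense to Col4a1, had group means between 4.34 and 6.71 normalized counts. Of the 31-base words of the transcripts, 0.066% in Col4a1 and 0% in Col4a2 were shared with other genes, and the highest share among the 10 genes was 1.44% in Sparc.

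**Figure D3:**
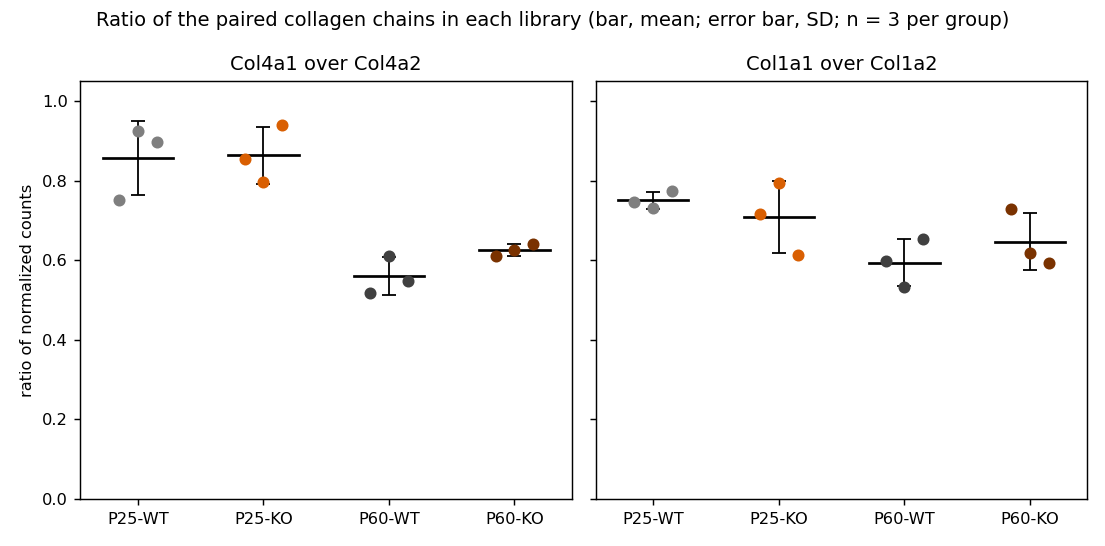
Ratio of normalized counts (vertical axis, from 0) of Col4a1 to Col4a2 and of Col1a1 to Col1a2 in each of the 12 libraries by group, with bars for means and error bars for SDs of 3 libraries. The type IV ratios lie between 0.751 and 0.939 at P25 and between 0.518 and 0.641 at P60, and the type I ratios of KO mice overlap between ages.

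Sparc (ENSMUSG00000018593, chromosome 11, 55394500 to 55423183, minus strand) had 18916, 22539 and 16950.0 normalized counts in P25-WT, and 12567, 14273 and 12491 in P60-WT. KO libraries had 17155, 18373 and 19099.6 at P25, and 13782, 12658 and 13015 at P60. The adult libraries were below the juvenile ones in both genotypes. The log2 differences were -0.56 ± 0.11 in WT and -0.47 ± 0.06 in KO mice, and the P60 mean was 67.3% of the P25 mean in WT and 72.2% in KO mice.

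To compare levels between genes, the mean normalized counts were divided by the length of the longest transcript in kilobases. In P25-WT, Sparc stood first with 8465 per kb, 17.7 times the next gene, followed by Col4a2 with 479, Eln with 399 and Col4a1 with 396. Col1a2 (240.8), Col1a1 (163), Col3a1 (82.9), Fbln5 (45.3), Fbn1 (26.02) and Lox (11.6) followed in that order. Col4a2, Eln and Col4a1 did not differ beyond their spread, with SDs of 77.1, 36.0 and 43.4 per kb. In P60-WT, Sparc was again first with 5700.1 per kb, and Eln stood at 100.3, below Col4a2 (438), Col4a1 (237) and Col1a2 (136). Col1a1 (72.5), Col3a1 (35.7), Fbln5 (35.5), Fbn1 (26.9) and Lox (6.01) came after it. In P60-WT the levels of Col3a1 and Fbln5 did not differ beyond their spread, with SDs of 16.2 and 2.67 per kb. The P25-KO order had Col4a1 above Eln (420 and 387 per kb), which did not differ beyond their SDs of 38.4 and 57.6. The P60-KO order was that of P60-WT, and Col3a1 (34.6) and Fbln5 (32.6) again did not differ beyond their SDs of 2.73 and 2.12.

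Within groups the 10 genes did not form a block. Over the 12 libraries, each taken as its deviation from its group mean, the Pearson correlation of a gene with the mean of the other 9 ran from -0.56 for Sparc to 0.57 for Col4a2, with 0.55 for Col4a1, 0.38 for Col1a1 and 0.37 for Col1a2. These values describe libraries that share scaling and groups, and no p is given. P25-WT replicate 2 was the lowest of its group for 6 of the 10 genes, and P25-KO replicate 1, P60-WT replicate 2 and P60-KO replicate 2 for 5 each. P25-KO replicate 2 was the lowest for 4, and with 3 libraries per group no tendency of a library is read from these counts. By the same measure, genes outside the 10 whose deviations were most like the mean of the 10 included Ssc5d (r = 0.94 over 12 libraries), Lman1 (0.93), Plod1 (0.92) and Tjap1 (0.91), followed by Ap3b1, Foxc1, Ptger1, Insl5 and Adgra3 at 0.89 to 0.91. Of these, Plod1 encodes a collagen lysyl hydroxylase and Foxc1 a transcription factor of the meninges. The genes were picked as the highest of all genes ranked, which alone yields high correlations over 12 libraries. No link to the matrix is read from them.

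Whether the loss of Shank3 changed the matrix genes was tested at each age. None of the 10 genes passed the threshold at P25 (limma, adjusted p = 0.99996 for each) or at P60 (adjusted p = 0.9995 for each), and 0 of them had an unadjusted p under 0.05 at either age. Over all genes, 1 of 17515 passed at P25, or 0.00571%, and 1 of 17610 at P60, or 0.00568%, which was Shank3 each time. An unadjusted p under 0.05 was found for 238 genes (1.36%) at P25 and 440 genes (2.50%) at P60. The study, with DESeq2 and the same threshold, named further genes at each age, among them Yy2 at P25 and Lamb3 at P60. The limma fit therefore called fewer genes than the study did. The median log2 difference of the 10 genes between KO and WT was 0.03 at P25, with 4 genes below 0, and 0.00 at P60, with 5 below 0. Without P25-WT replicate 2 the P25 median was -0.055.

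Lox and Col1a2 were the genes whose groups did not overlap at P25, 2 of 10 beside 4.76% of all genes. The 3 P25-KO values of Lox, from 42.0 to 45.1, lay below the P25-WT values, from 48.8 to 62.3, with a log2 difference of -0.34 and a 95% interval from -0.77 to 0.09. Col1a2 lay higher in P25-KO than in P25-WT, with a difference of 0.13 and an interval from -0.06 to 0.32. At P60 both overlapped, with differences of -0.21 (interval from -1.03 to 0.61) for Lox and -0.15 (from -0.42 to 0.13) for Col1a2, and 0 of the 10 genes were separate, beside 7.79% of all genes.

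For Eln the difference was -0.05 at P25, with an interval from -0.32 to 0.22, and 0.07 at P60, with an interval from -0.19 to 0.33. For Col4a1 it was 0.09 at P25, with an interval from -0.15 to 0.32, and 0.18 at P60, with an interval from -0.06 to 0.41. The remaining 6 genes lay between -0.12 (Fbln5 at P60) and 0.07 (Col4a2 at P25). The widest interval among them was that of Col3a1 at P60, from -0.57 to 0.69, and the narrowest that of Sparc at P60, from -0.13 to 0.14. These intervals bound the differences that 3 libraries per group could show, and a p that misses the threshold does not show that the genotypes were alike.

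Lists of cell type markers were set beside the genotype comparison, in which none of their genes passed by limma at either age. At P60 all 12 endothelial markers and 10 of 12 meningeal and perivascular fibroblast markers had a KO minus WT difference below 0, with medians of -0.18 and -0.16 on the log2 scale. At P25 it was 7 of 12 and 6 of 12, with medians of -0.030 and 0.010. P60-KO replicate 2 had the lowest mean log2 deviation of the 12 libraries for the endothelial (-0.39) and smooth muscle (-0.47) lists, and without it the median difference of the 10 matrix genes at P60 was 0.016, with 0 of them called, as with it. The 5 red blood cell markers lay above 0 at both ages, with medians of 0.19 at P25 and 0.16 at P60. The part of these markers in the genotype values was not tested.

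**Figure D4:**
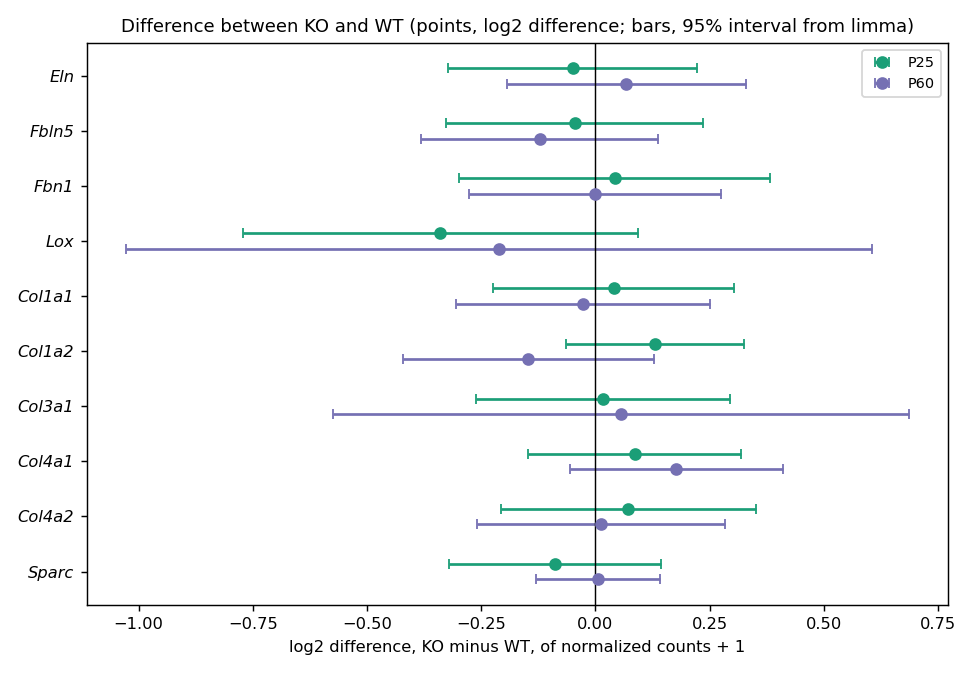
Log2 difference between KO and WT (horizontal axis, of normalized counts + 1) for the 10 matrix genes at P25 and P60, with 95% intervals from limma as bars. All 20 intervals include 0, and those of Lox at both ages and Col3a1 at P60 are the widest.

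The difference between ages was then compared between genotypes by the genotype by age interaction over the 12 libraries. None of the 10 genes passed (limma, adjusted p = 0.99996 for each), beside 0% of 17594 genes, of which 288 had an unadjusted p under 0.05. The interaction of the 10 genes ran from -0.28 ± 0.16 (SE) for Col1a2 to 0.13 ± 0.42 for Lox. The estimated step down of Col1a2 was larger in KO mice, but the 95% interval of its interaction, from -0.61 to 0.06, includes 0. For Eln it was 0.12, with a 95% interval from -0.26 to 0.49.

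The other genes of the pathway were described from 6 lists, none of which holds the 10 genes. No gene of these lists passed the threshold in a genotype comparison or in the interaction. Between ages, the medians of the lists lay between -0.20 and 0.03 in WT mice and between -0.31 and -0.02 in KO mice on the log2 scale.

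The counts of calls in each list stand beside 8.65% of all genes in WT mice (4.99% lower, 3.66% higher) and 20.7% in KO mice (11.3% lower, 9.37% higher), and nothing particular to a list is read from them. Among 18 tested genes of elastic fibre assembly, 2 were lower and 1 higher at P60 in WT mice, and 6 lower and 1 higher in KO mice. In WT mice these were Loxl2, Mfap2 and the higher Efemp1, and in KO mice Loxl2, Loxl1, Adamtsl2, Ltbp4, Emilin2, Vtn and the higher Efemp1. Loxl2, a relative of Lox, fell from 79.2 ± 18.3 to 35.6 ± 3.31 normalized counts in WT mice, by 1.11 on the log2 scale (limma adjusted p = 0.0235), and by 0.96 in KO mice (adjusted p = 0.0160). Loxl1, Adamtsl2 and Ltbp4, of which the last encodes a protein that carries latent TGF-beta and helps elastin assemble, fell in KO mice by 0.66, 0.49 and 0.37 (adjusted p = 0.0143, 0.0134 and 0.00344). Their WT differences, -0.44, -0.78 and -0.35, did not pass (adjusted p = 0.113, 0.0520 and 0.0721), and the difference between genotypes passed for none of them.

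Of 18 other basement membrane genes, 4 were lower and 0 higher at P60 in WT mice, and 6 lower and 0 higher in KO mice, where Lamb2 and Nid2 joined them. Hspg2, which encodes perlecan, fell by 1.25 in WT (adjusted p = 0.0250) and by 1.04 in KO mice (adjusted p = 0.000796). Nid1, which encodes nidogen-1, fell by 0.90 and 0.79 (adjusted p = 0.0136 and 0.00138), and Lamc1, the laminin gamma-1 chain, fell by 0.78 and 0.74 (adjusted p = 0.00728 and 0.00244). Col4a5, another type IV collagen chain, fell by 0.71 and 0.56 (adjusted p = 0.0340 and 0.00724).

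The laminin chain gene Lamb3 is in none of the 6 lists and was chosen with its values known. Lamb3 had 91.0, 121 and 104 normalized counts in P60-KO and 44.4, 33.7 and 34.3 in P60-WT, groups that did not overlap, as in 7.79% of all genes at P60. Its KO minus WT difference was 1.47 ± 0.20 (log2, SE), with an adjusted p of 0.19 by limma over all genes, so it did not pass the threshold. At P25 the Lamb3 difference was 0.37 ± 0.34.

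Of 24 other fibrillar or associated collagens and small proteoglycans, 0 passed in WT mice by limma, and 5 were lower and 0 higher in KO mice, where 20.7% of all genes passed. In KO mice Col5a2 was among them, Col11a2 fell by 0.68 (adjusted p = 0.00139), Postn, which encodes periostin, fell by 0.87 (adjusted p = 0.00848), Bgn, the proteoglycan biglycan, fell by 0.42 (adjusted p = 0.0110) and Col6a2 fell by 0.46 (adjusted p = 0.0240). In WT mice the values were -0.54, -0.12, -0.37 and -0.34.

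Of 22 genes of collagen processing, 2 were lower and 1 higher in WT mice, and 5 lower and 2 higher in KO mice, where Ppib, Serpinh1 and the higher P4ha2 passed beside the genes given here. Plod1 fell by 0.56 in WT (adjusted p = 0.0255) and by 0.55 in KO mice (adjusted p = 0.00924), and Fkbp10, a collagen chaperone, by 0.64 and 0.53 (adjusted p = 0.0260 and 0.0110). Pcolce2, an enhancer of procollagen C-proteinase, rose from 144 ± 42.1 to 286 ± 51.9 normalized counts in WT mice, by 1.003 on the log2 scale (adjusted p = 0.0281), and by 0.80 in KO mice (adjusted p = 0.00314). Its relative Pcolce fell by 0.62 in KO mice (adjusted p = 0.00664), with -0.31 in WT mice (adjusted p = 0.153).

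Of 19 tested matrix proteases and inhibitors, 4 were lower in WT and 7 in KO mice, and 0 higher. Adamts4, a proteoglycan-cleaving protease, fell by 0.77 and 0.81 (adjusted p = 0.00946 and 9.76e-05), and Plat, tissue plasminogen activator, by 0.58 and 0.63 (adjusted p = 0.00800 and 0.00183). Ctsk, the collagen-degrading cathepsin K, fell by 0.93 and 1.01 (adjusted p = 0.0356 and 0.00187), and Mmp15 by 0.47 in each (adjusted p = 0.0281 and 0.00258). Of 21 tested receptors and TGF-beta genes, 3 were lower in WT mice and 0 higher, and 5 were lower and 1 higher (Smad3) in KO mice, Itgb3 among the lower ones, beside 8.65% of all genes called in WT and 20.7% in KO mice. Ddr1, a collagen receptor kinase, fell by 0.59 and 0.51 (adjusted p = 0.00659 and 0.00159), Itgb1, the beta-1 integrin, by 0.40 and 0.39 (adjusted p = 0.0217 and 0.00266), and Smad7, an inhibitor of TGF-beta signalling, by 0.57 and 0.54 (adjusted p = 0.0232 and 0.00286). Ccn2, a TGF-beta target, fell by 0.39 in KO mice (adjusted p = 0.00583), with -0.29 in WT mice (adjusted p = 0.0707).

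Markers of the cells that make these matrix proteins, and of other cells, were set beside the age differences. The 12 brain endothelial markers summed to between 11783 and 14321 normalized counts in the P25 libraries and between 9243 and 13996 in the P60 libraries, so the ages overlapped. In WT mice Mfsd2a passed lower and Abcb1a higher, 1 each of 12, and in KO mice Mfsd2a and Slc2a1, 2 of 12, passed lower. Over all genes, 8.65% passed in WT and 20.7% in KO mice, and nothing particular to the list is read from its calls. The 8 vascular smooth muscle markers, with none called, summed to between 1628 and 1894 at P25 and between 1349 and 2306 at P60.

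The 10 pericyte markers summed to 8472 ± 495 in P25-WT and 6794 ± 257 in P60-WT, and to 8062 ± 248 and 6297 ± 140 in KO mice (SD, n = 3), without overlap between ages. Cspg4 and Rgs5 fell in both genotypes and Vtn in KO mice, that is 2 and 3 of 10, beside 8.65% of all genes called in WT and 20.7% in KO mice. In each genotype 8 of 10 had a difference below 0. Of all genes taken singly, 36% in WT and 39.4% in KO mice did not overlap between ages. The 12 meningeal and perivascular fibroblast markers summed to 6683 ± 303 and 5203 ± 698 in P25-WT and P60-WT, and to 6738 ± 450 and 4994 ± 222 in KO mice, again without overlap. Of these, Igf2 alone passed, lower at P60. The median log2 difference of the list was -0.01 in WT mice, with 6 of 12 markers below 0, and -0.10 in KO mice, with 7 of 12. The mean log2 deviation of the list, in which each marker counts equally, overlapped between ages in WT but not in KO mice. In WT mice it ran from -0.075 to 0.10 at P25 and from -0.086 to 0.20 at P60, so the lower sums do not show a fall across the list. The fibroblast list shares 5 genes (Dcn, Lum, Ogn, Fmod and Col15a1) with the list of other collagens and proteoglycans, and the pericyte list shares Vtn with that of elastic fibre assembly. No marker of these 4 lists had a value of 0 in any library, and their part in the differences of the 10 genes was not tested.

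The 5 red blood cell markers, haemoglobin genes and Alas2, were all lower at P60, with a median log2 difference of -2.11 in WT and -2.01 in KO mice. They summed to between 20503 and 42983 normalized counts at P25 and between 5894 and 7305 at P60. The 6 oligodendrocyte markers were all lower too, with medians of -1.33 and -1.22, and 4 of 6 astrocyte markers passed lower in each genotype, with medians of -0.31 and -0.26. The 6 choroid plexus markers had median differences of 0.31 in WT and 0.36 in KO mice, and 1 passed higher in WT (Kl) and 3 in KO mice (Kl, Kcnj13 and Otx2). Of the 6 markers of cycling cells, 1 passed lower in WT (Cdk1) and 2 in KO mice (Mki67 and Top2a). Of the 6 microglial markers 0 passed (limma), with medians of -0.19 and -0.17. Of the 6 forebrain markers, 2 passed lower in each genotype, Ppp1r1b in both, and all P60 sums lay below all P25 sums. Of the 6 neuronal markers 1 passed higher (Snap25) and 1 lower (Slc17a7) in each genotype. All these counts stand beside 8.65% of all genes called in WT mice and 20.7% in KO mice. Whether blood content or the make-up of the dissected tissue moved the 10 genes was not tested.

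**Figure D5:**
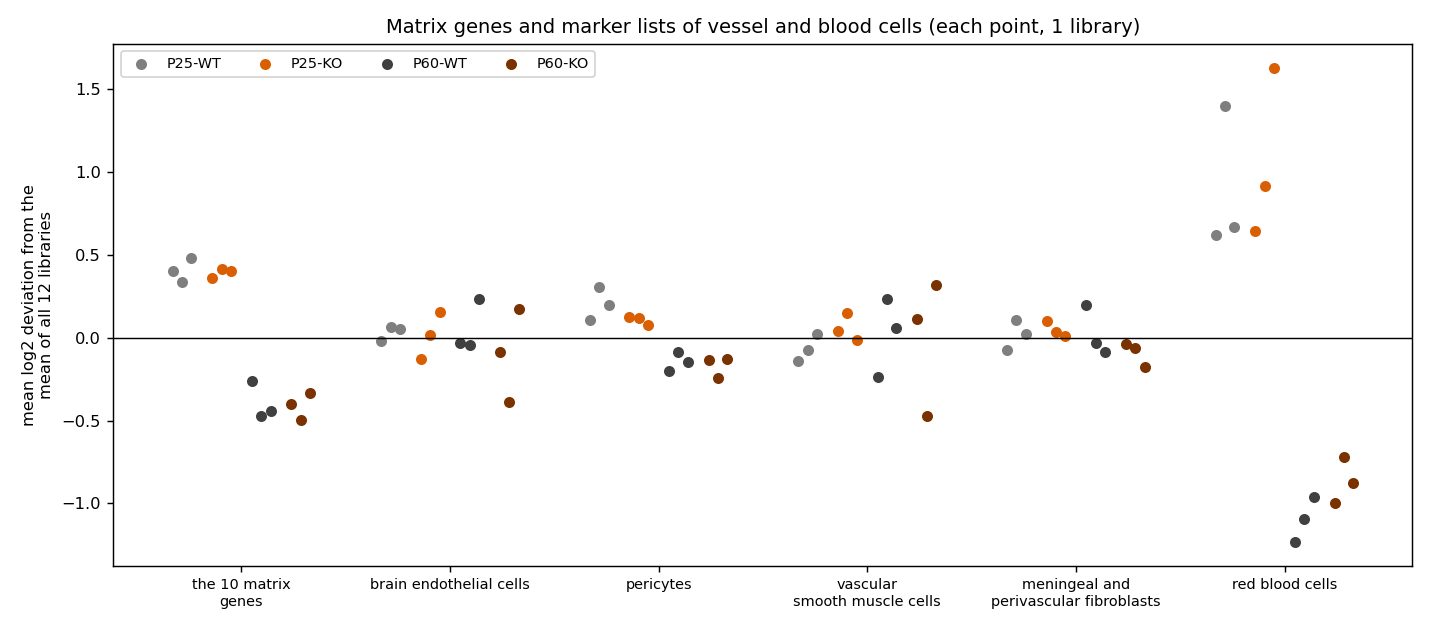
Mean log2 deviation from the mean of all 12 libraries (vertical axis) of the 10 matrix genes and of 5 marker lists (horizontal axis), with 1 point per library. The matrix genes lie between 0.34 and 0.48 in P25-WT and between -0.47 and -0.26 in P60-WT. The endothelial and smooth muscle lists overlap between ages, the fibroblast list overlaps in WT but not in KO mice, and the red blood cell list has the widest gap.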

How the data were processed

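RNA from the forebrain of 12 mice was sequenced (TruSeq libraries, version 2). According to the study's methods and processing notes, the authors quantified transcripts with Salmon 1.1.0 with GC bias correction on GRCm38, imported them with tximport and normalized them with DESeq2 (1.26.0 in the processing notes). The deposited values are signal on a count scale, normalized by the authors over all libraries. They are not whole reads (0.199% of values above 0 lie within 0.001 of a whole number), so no count model was fitted, and depth is unknown. The annotation and the strand setting are not given in the sources used here.

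Symbols, coordinates and lengths came from GENCODE M21, in which 19252 of 19268 identifiers were found. RefSeq (GRCm38.p6) gave 8 promoter windows for 7 members. Differences were fitted on log2(value + 1) with limma 3.58.1 in R 4.3.3 (lmFit, eBayes with an intensity trend) for genes with a mean of at least 10. Benjamini-Hochberg adjusted p-values were computed over all genes, with 0.05 as the threshold. KO was compared with WT within an age and P60 with P25 within a genotype, with the 6 libraries concerned, and the interaction was fitted to all 12. Groups and replicate numbers came from the sample titles. The p-values measure the spread between these libraries. Correlation of the deviations of same-numbered libraries was above 0.1 for every pair in no comparison, so the numbers were not taken to pair mice. The members, the lists and the naming rule (in each list, up to 4 genes with the smallest adjusted p in an age comparison) were chosen with earlier results of these data known. Genes outside the rule are named to account for a count and were picked after their values were seen. One gene that met the naming rule is not reported here. Scripts were tested on simulated data.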

Additional observations from a re-analysis of the deposited data

How the results depend on the processing

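Settings were changed 1 at a time (pseudocount, low-value filter, library scaling, variance trend, which libraries shared the fit, replicate block), and each library was left out in turn. Between ages, 11 member values lost and 4 gained their call in WT mice and 6 lost and 1 gained it in KO mice, of 149 each, and no called member changed direction. Between genotypes no member was called under any of these settings.

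Without the variance trend, 0 genes passed at P25 and 0 at P60 between genotypes (Shank3 had adjusted p = 0.412 and 0.185), and 192 genes passed between ages in WT and 1725 in KO mice, with 2 members called in WT mice. With all 12 libraries in one fit, 3442 genes and 8 members passed between ages in WT mice. With a minimum mean of 50, Lox was left out of the fits, and the member median between ages in KO mice was -0.65.

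With the replicate block, 0 genes passed at P25 (Shank3 adjusted p = 0.261), 1 at P60, 1791 between ages in WT and 2482 in KO mice, with 6 members called in each, and 0 in the interaction. The correlations of same-numbered libraries ran from -0.07 to 0.17, so they share only a number. The block cost Fbln5 its call in KO mice and no other member its call.

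With 1 library left out, from 0 to 8 genes passed at P25 between genotypes, from 1 to 3 at P60, from 122 to 2403 between ages in WT mice, from 2093 to 3230 in KO mice, and from 0 to 1 in the interaction. The members called ran from 3 to 6 in WT and from 6 to 7 in KO mice. The member median ran from -0.055 to 0.058 at P25, from -0.12 to 0.016 at P60, from -0.053 to 0.047 in the interaction, from -0.85 to -0.73 between ages in WT mice and from -0.93 to -0.51 in KO mice.

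Members that were not called changed sign when 1 library was left out. Between ages Fbn1 ran from -0.069 to 0.19 in WT and from -0.063 to 0.080 in KO mice, and Col4a2 was 0.0017 in WT mice without P60-WT replicate 2. At P25 the log2 difference between genotypes ran from -0.16 to 0.059 for Eln, from -0.11 to 0.030 for Fbln5, from -0.069 to 0.19 for Fbn1, from -0.047 to 0.14 for Col1a1, from -0.095 to 0.13 for Col3a1, from -0.065 to 0.17 for Col4a2 and from -0.18 to 0.023 for Sparc. At P60 it ran from -0.020 to 0.17 for Eln, from -0.077 to 0.12 for Fbn1, from -0.51 to 0.13 for Lox, from -0.12 to 0.11 for Col1a1, from -0.29 to 0.39 for Col3a1, from -0.12 to 0.12 for Col4a2 and from -0.028 to 0.069 for Sparc. The interaction ran from -0.19 to 0.077 for Fbn1, from -0.17 to 0.46 for Lox, from -0.16 to 0.068 for Col1a1, from -0.31 to 0.37 for Col3a1, from -0.012 to 0.19 for Col4a1, from -0.19 to 0.077 for Col4a2 and from -0.016 to 0.19 for Sparc. The cause was not tested. The 3 libraries per group and the unknown depth limit all of these values.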
